A study of Mus musculus with 8 samples.

Results

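The p53 pathway was followed through 31 listed genes, namely Trp53, which encodes p53, and 30 genes known as its targets or effectors. Members were found by their symbol in the deposited tables, with the transcript of highest mean kept where a gene has several. All 31 were found, and 24 of them had a mean value of at least 20 over the 8 libraries and entered the test, among 10599 transcripts. Sesn1 (mean 30.1) and Ei24 (mean 33.2) lay just inside this threshold, Aen (mean 16) and Eda2r (mean 11.6) just outside. The other members below it were Trp53 itself, Trp53inp1, Gtse1, Ddit4l and Apaf1.

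The libraries are RNA-seq from lineage-negative bone marrow cells of C57BL/6 mice, a preparation enriched for haematopoietic stem and progenitor cells. Every group, controls included, is labelled Ring1a-/- Cdkn2a-/-, that is, without Ring1a, a Polycomb ubiquitin ligase, and without the INK4A/ARF locus. In each of 4 contexts, cells labelled Ring1b WT (ethanol, called control here) stand against cells labelled Ring1b KO (4-hydroxytamoxifen, OHT), after 72 h of treatment. The contexts are NT, labelled as not transduced, and cells given the homeobox gene HOXA9 or a leukaemia fusion gene, PML-RARa or MLL-AF9. The header of the NT table reads "Empty", so whether these cells carried a vector without insert is not settled. Each context and genotype has 1 library, ages are not given, and an effect of OHT itself cannot be told apart from that of the Ring1b deletion.

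p53 is a transcription factor that is normally held low because Mdm2, itself a p53 target, marks it for degradation. Stress on DNA, ribosomes or oncogene signalling frees p53, which then raises genes of cell cycle arrest, apoptosis and repair. ARF, a product of Cdkn2a, is the usual link from oncogenes to p53, since it restrains Mdm2, and blood cells are known to be sensitive to death driven by p53. The labels give Cdkn2a as knocked out in all 8 libraries, yet its 2 listed transcripts had values of 18.0 to 67.2, so reads were present at the locus in every library. The whole-transcript value of Rnf2, the gene for Ring1b, did not pass the test (mean log2 ratio -0.04 ± 0.14, limma adjusted p = 0.85) and does not check the labels, since reads from an undeleted part would still count. Ring1, the gene for Ring1a and labelled as deleted in both groups, had 109 to 191 in control and 23.8 to 77.8 in OHT libraries (-1.81 ± 0.33, limma adjusted p = 0.040). Libraries held 4226751 to 6998223 reads, and each value is a normalised count of reads for 1 RefSeq transcript. Ratios are OHT over control as log2(value + 1), averaged over the 4 contexts and given ± limma's moderated SE. Its variance is drawn towards that of all transcripts, so it is not the plain SE of the 4 ratios. Calls are limma adjusted p-values under 0.05 over all 10599 transcripts.

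A p53 response element is built of a pair of similar 10-base units, here called decamers. RefSeq start sites (GRCm38.p6) were given for 23 of the 31 members, in 31 windows of 250 bases before a start. A decamer that met the p53 consensus stood in 12 of the 31 windows (38.7%) against 7.13% of 32851 windows of all genes, or in 12 of 23 member genes (52.2%) against 8.20% of 27025 genes. The consensus is its own reverse complement, so both strands were read at once. The members are known p53 genes, so this share describes the list and is no independent evidence. A pair of decamers with at most 13 bases between them was far rarer, in 21 of the 32851 windows (0.0639%), and 1 of these 21 belongs to Cdkn1a, the gene of the cell cycle inhibitor p21. Cdkn1a has 2 starts that lie 2790 bases apart, and they are shown because the ratios of their transcripts differ in size. Ccng1 and Mdm2, each with a single decamer, and Phlda3, with none in the window, are shown as members that rose. Decamers are in capitals, and each line gives the 250 bases before the start, 5′ to 3′ on the gene's strand.
Cdkn1a upstream start, chr17:29090729-29090978, + strand: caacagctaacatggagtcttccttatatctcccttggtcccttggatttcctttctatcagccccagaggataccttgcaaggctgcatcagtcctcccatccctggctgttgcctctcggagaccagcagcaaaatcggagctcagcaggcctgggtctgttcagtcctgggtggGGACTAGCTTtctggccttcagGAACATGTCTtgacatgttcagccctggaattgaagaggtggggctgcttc
Cdkn1a downstream start, chr17:29093519-29093768, + strand: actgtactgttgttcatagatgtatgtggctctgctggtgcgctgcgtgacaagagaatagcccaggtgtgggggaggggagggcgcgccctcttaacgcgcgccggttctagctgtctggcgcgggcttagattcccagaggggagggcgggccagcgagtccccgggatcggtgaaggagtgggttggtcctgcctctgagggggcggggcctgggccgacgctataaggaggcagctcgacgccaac
Ccng1, chr11:40755287-40755536, - strand: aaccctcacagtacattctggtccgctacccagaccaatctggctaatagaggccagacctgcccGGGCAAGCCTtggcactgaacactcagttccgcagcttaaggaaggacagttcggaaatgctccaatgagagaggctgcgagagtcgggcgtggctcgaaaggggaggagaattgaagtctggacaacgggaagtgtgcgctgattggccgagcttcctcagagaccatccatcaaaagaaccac
Mdm2, chr10:117710759-117711008, - strand: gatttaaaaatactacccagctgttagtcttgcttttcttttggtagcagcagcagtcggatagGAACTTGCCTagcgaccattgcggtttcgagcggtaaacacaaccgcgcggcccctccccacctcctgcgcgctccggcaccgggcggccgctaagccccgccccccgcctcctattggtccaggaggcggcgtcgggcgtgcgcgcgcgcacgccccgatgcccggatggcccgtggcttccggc
Phlda3, chr1:135765835-135766084, + strand: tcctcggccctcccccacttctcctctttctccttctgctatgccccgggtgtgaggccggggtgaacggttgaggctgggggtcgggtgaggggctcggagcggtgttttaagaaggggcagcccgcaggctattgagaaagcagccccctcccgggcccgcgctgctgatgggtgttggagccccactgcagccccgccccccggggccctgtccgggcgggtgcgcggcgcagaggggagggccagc
A match describes letters and is not a bound site. Only exact matches were marked. In the Cdkn1a upstream window tgacatgttc directly follows GAACATGTCT and departs from the consensus in its first base only, so it was not counted. The pair in capitals is therefore not the only way to read that window. Elements outside these windows, such as those known in the first intron of Mdm2, were not searched.

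The comparison of OHT with control across the 4 contexts asked whether p53 and its targets differed between cells labelled Ring1b KO and Ring1b WT. Of the 24 tested members, 5 rose (Zmat3, Phlda3, Fas, Ccng1 and Mdm2), 2 fell (Ddb2 and Xpc) and 17 did not pass. The risen members make 20.8% of those tested against 6.40% of all transcripts, while the fallen ones make 8.33% against 7.48%, which is near the background. The median log2 ratio of the 24 members was 0.45, beside -0.03 over all transcripts. Members were chosen with earlier results of these data known, so the shares and medians here are a description and no independent support. In 9 of 24 members (37.5%) every OHT library lay above every control library, against 8.28% of all transcripts, and Ddb2 was the only tested member with every OHT library below (4.17% of members, 12.6% of all transcripts). Ratios had the same sign in all 4 contexts for 13 members on the higher side (54.2%, against 22.9% of all) and for 3 on the lower side (12.5%, against 26.5%). In these bulk samples a change in the share of cells that carry a transcript and a change in its level per cell cannot be told apart.

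**Figure D1:**
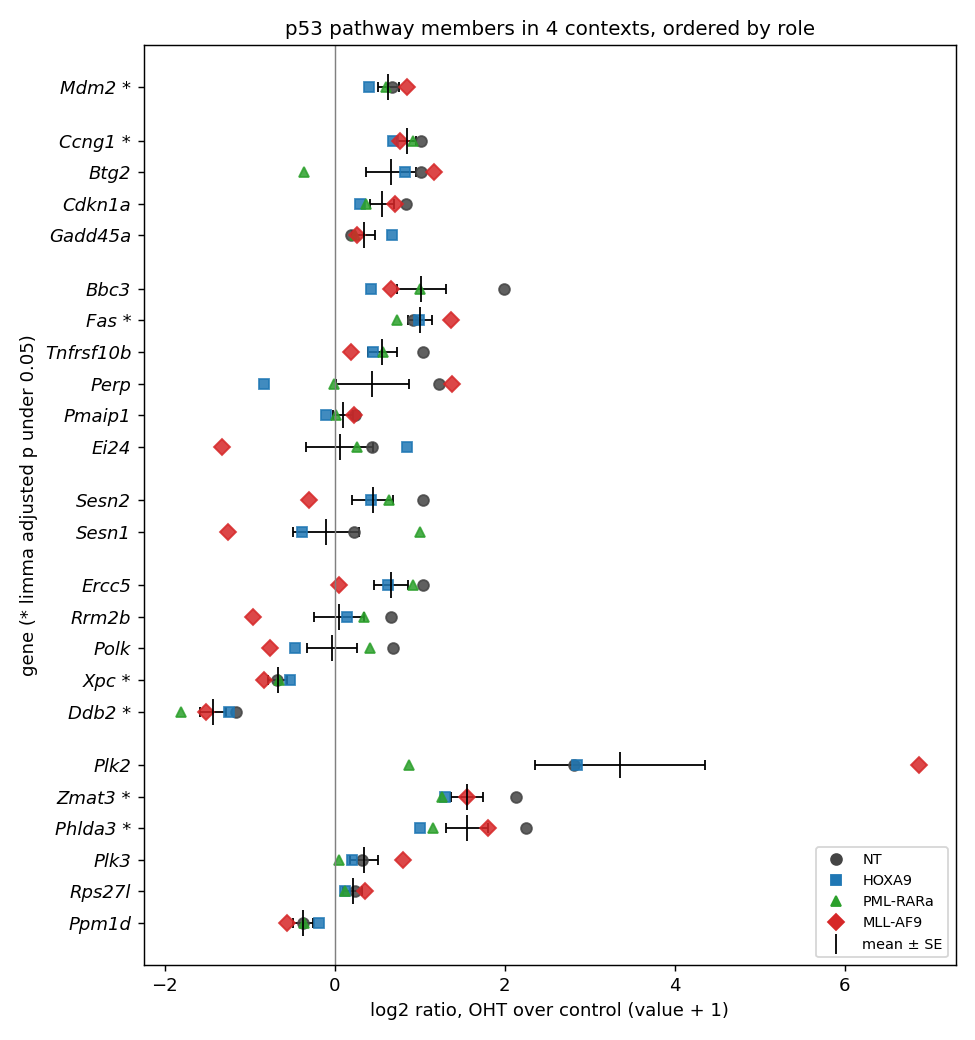
Log2 ratio of OHT over control (x axis, value + 1) for each of the 24 tested members (y axis, by role). Each context is 1 point, and the black bar is the mean and limma's moderated SE. Stars mark the 7 members past the test; Ddb2 and Xpc lie left of 0 in all 4 contexts, and Plk2 spreads from 0.88 to 6.87.

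The calls rest on having all 4 contexts. Counting each context pair as 1 replicate, in each fit that left out 1 pair (NT, HOXA9, PML-RARa or MLL-AF9) limma called 0 of the 24 members, against 0.245%, 0%, 0% and 0% of all transcripts. At an unadjusted p under 0.05 stood 10, 10, 10 and 14 members, against 30.2%, 31.3%, 29.1% and 28.1% of all transcripts, and all 7 called members kept their direction. DESeq2 on the recovered whole reads called 10 members higher and 2 lower with all pairs, against 16.7% and 12.9% of all transcripts. edgeR with TMM scaling called 8 higher and 2 lower, against 12.0% and 9.05%. Without a filter on low values limma called 2 of 31 members higher and 1 lower, against 1.07% and 0.760% of all transcripts.

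Of p53 and its control, Trp53 could not be judged. Its listed transcript (NM_001127233) had 7 to 15 reads in each library, and values of 11.6 and 13.5 in the NT control and OHT libraries, 9.13 and 10.9 in HOXA9 cells, 8.61 and 8.33 in PML-RARa cells and 15.9 and 13.6 in MLL-AF9 cells. The 2 groups overlap, and the 95% counting interval of the log2 ratio in NT alone ran from -0.99 to 1.42. How reads shared between transcripts were assigned is not given in the sources used here, and its part in the low Trp53 value was not tested, so this value may not stand for the whole output of the gene. Mdm2, the ligase that degrades p53, rose from 1122 to 1791 in NT cells, from 1196 to 1579 in HOXA9 cells, from 1141 to 1729 in PML-RARa cells and from 1206 to 2181 in MLL-AF9 cells. All OHT libraries lay above all control libraries, which were within 1.08-fold of each other, and the mean log2 ratio was 0.63 ± 0.12 (limma adjusted p = 0.043). Ppm1d, a phosphatase that p53 induces and that switches p53 signalling off, went the other way in all 4 contexts without passing the test. Its value was 357 and 275 in NT cells, 288 and 254 in HOXA9 cells, 264 and 205 in PML-RARa cells and 339.9 and 231 in MLL-AF9 cells (mean log2 ratio -0.37 ± 0.12, limma adjusted p = 0.090).

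Among cell cycle arrest genes Ccng1, or cyclin G1, had the highest level per length of the risen members, with a mean of 467 per kb in control and 842 per kb in OHT libraries. Ccng1 rose from 1577 to 3178 in NT cells, from 1560.0 to 2510.2 in HOXA9 cells, from 1619 to 3063 in PML-RARa cells and from 1804 to 3081 in MLL-AF9 cells. The mean log2 ratio was 0.85 ± 0.11 (limma adjusted p = 0.035), with no overlap between groups and ratios that ran only from 0.69 to 1.01. Btg2, an antiproliferative adaptor of the mRNA decay machinery, went from 393 to 796 in NT cells, from 450.0 to 797 in HOXA9 cells and from 341 to 769 in MLL-AF9 cells. In PML-RARa its value was 942 in the control library and 733 with OHT. Btg2 thus stood at a like level in all 4 OHT libraries (774 ± 30.1, SD) and varied in the controls (531 ± 277, SD). It did not pass (limma adjusted p = 0.17), while the DESeq2 adjusted p was 0.042. Gadd45a, a stress sensor that binds PCNA and p21, had OHT values of 332 to 678 and control values of 208 to 565 (0.34 ± 0.13, limma adjusted p = 0.13).

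Cdkn1a encodes p21, the main arrest effector of p53, and the tables list 2 of its transcripts. The transcript of higher mean (NM_007669), which starts at the downstream site, had values of 43.0 and 77.9 in NT cells, 51.5 and 63.3 in HOXA9 cells, 66.0 and 85.7 in PML-RARa cells and 52.9 and 87.3 in MLL-AF9 cells. It was higher with OHT in 4 of 4 contexts, but the groups overlap and it did not pass (0.55 ± 0.14, limma adjusted p = 0.064). The other transcript (NM_001111099) starts at the upstream site, whose window holds the 2 exact decamer matches in capitals above. In NT cells it went from 6.62 to 45.7 and in HOXA9 cells from 14.1 to 48.0. In PML-RARa cells it went from 13.4 to 44.0 and in MLL-AF9 cells from 6.35 to 39.6. Here all OHT libraries lay above all controls, and the mean log2 ratio was 2.11 ± 0.22. The transcript was singled out after its values were seen, and its mean over all libraries (27.2) exceeds 20 through the OHT libraries (control mean 10.1), so its ratio is a description with no test.

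The share of the upstream transcript in the summed value of both was larger with OHT in every context. It was 13.3% and 37.0% in NT, 21.5% and 43.1% in HOXA9, 16.9% and 33.9% in PML-RARa and 10.7% and 31.2% in MLL-AF9. The upstream ratio exceeded the downstream one by 1.77 in NT cells, 1.40 in HOXA9 cells, 1.27 in PML-RARa cells and 1.75 in MLL-AF9 cells. The mean of these differences was 1.55 ± 0.13 (plain SE, not moderated, n = 4). Both transcripts are known to encode p21. Genes with several listed transcripts had a median of 2.63 reads per kb against 33.6 for those with 1, and the part of read assignment in the values of Cdkn1a, and of Sesn1 and Ei24, which also have 2 listed transcripts each, was not tested. With the values of both transcripts summed, Cdkn1a had a log2 ratio of 0.96 and passed (limma adjusted p = 0.036). This sum includes the upstream transcript singled out above, and the downstream transcript alone did not pass, so the sum is no separate support.

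**Figure D2:**
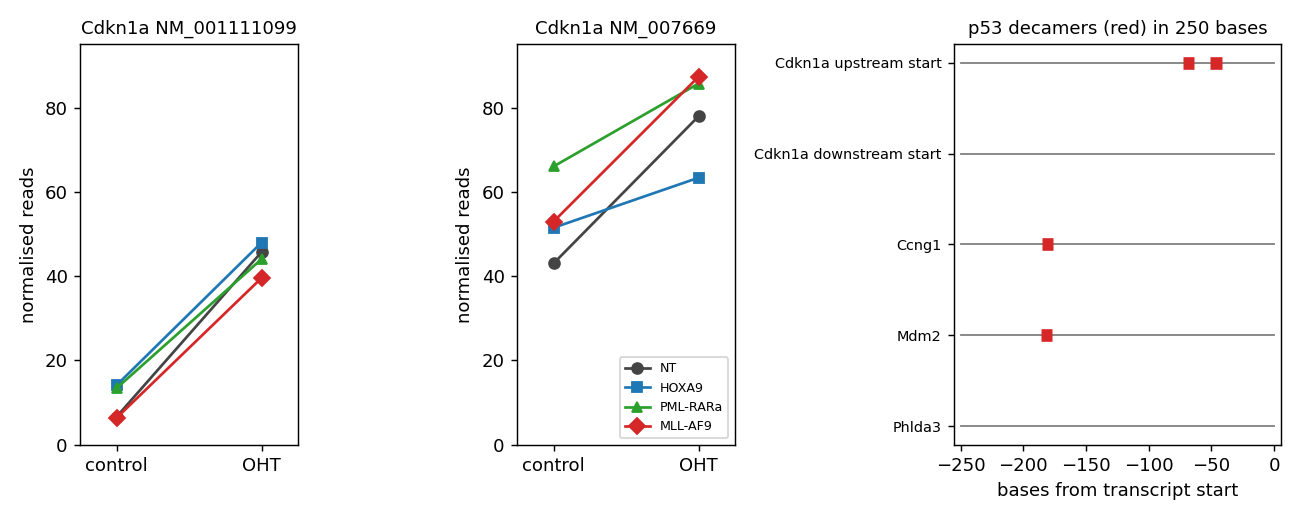
Left and middle, normalised reads (y axis) of the 2 Cdkn1a transcripts in control and OHT libraries, 1 line per context; right, positions of p53 decamers (red) in the 250 bases before 5 transcript starts (x axis, bases from the start). The upstream transcript goes from 6.35 to 14.1 in controls to 39.6 to 48.0 with OHT, and its window holds 2 decamers that met the consensus exactly.

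Of the apoptosis genes, 6 of 10 were tested (median 0.50) and Fas alone rose. Fas, a death receptor, went from 112 to 213 in NT cells, from 134 to 266 in HOXA9 cells, from 121 to 201 in PML-RARa cells and from 126 to 327 in MLL-AF9 cells. The control libraries were close together (123 ± 9.25, SD) and all OHT libraries lay above them, which gave a mean ratio of 1.0 ± 0.14 on the log2 scale (limma adjusted p = 0.036). Bbc3, or PUMA, a BH3-only protein known to carry p53-driven death of blood progenitors, also had all OHT libraries above the controls. Its values were 215 and 859 in NT cells, 274 and 367 in HOXA9 cells, 343 and 686 in PML-RARa cells and 234 and 371 in MLL-AF9 cells. The ratio of Bbc3 was largest in NT (1.99) and smallest in HOXA9 (0.42), and it did not pass (1.02 ± 0.29, limma adjusted p = 0.075; DESeq2 adjusted p = 0.0023). Pmaip1, or NOXA, another BH3-only gene, did not pass, with control values of 621 to 1308 and OHT values of 735 to 1536 (0.10 ± 0.12, limma adjusted p = 0.58).

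Tnfrsf10b, the mouse TRAIL receptor, had values of 228 and 471 in NT cells, 199 and 272 in HOXA9 cells, 229 and 339 in PML-RARa cells and 258 and 295 in MLL-AF9 cells. Every OHT library lay above every control, and limma gave an adjusted p of 0.086 (0.56 ± 0.17). The DESeq2 adjusted p was 0.015. Perp, a tetraspan membrane protein of p53 death and of cell junctions, differed widely between contexts. Its control value was 399.6 in NT cells, 1469 in HOXA9 cells, 1962 in PML-RARa cells and 105 in MLL-AF9 cells, an 18.7-fold range, and with OHT it was 939, 825, 1949 and 276 in the same order. The Perp ratio was positive in NT (1.23) and MLL-AF9 (1.39), negative in HOXA9 (-0.83) and near 0 in PML-RARa cells (-0.01), with a mean of 0.44 ± 0.43 (limma adjusted p = 0.48). Ei24, a p53-induced endoplasmic reticulum protein, had 15.0 to 44.3 in OHT and 24.1 to 39.2 in control libraries (limma adjusted p = 0.93).

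Several members below the threshold had low but unequal values, which did not enter the main test and are given as a description. Eda2r, the receptor of ectodysplasin A2, went from 5.79 to 47.8 in NT cells and from 2.87 to 20.2 in PML-RARa cells, and from 2.49 to 6.33 in HOXA9 cells and from 2.12 to 5.46 in MLL-AF9 cells. Ddit4l, an inhibitor of mTOR signalling, went from 4.14 to 34.3 in NT cells, from 3.32 to 9.95 in HOXA9 cells, from 0.96 to 13.1 in PML-RARa cells and from 3.18 to 19.1 in MLL-AF9 cells. Ddit4l had every OHT library above every control, but its control libraries held only 1 to 5 reads. Where no filter on low values was used, its ratio of 2.31 lay just under the threshold (limma adjusted p = 0.0498). In that fit 1.07% of all transcripts were called higher. With so few control reads this call is weak. Gtse1, a cell cycle protein that restrains p53, had 6.64 to 8.27 in control and 1.36 to 5.20 in OHT libraries. Aen, an apoptotic nuclease, Apaf1, the scaffold of the apoptosome, and Trp53inp1, a stress-induced p53 cofactor, stayed between 2.08 and 22.2 in all libraries with overlapping groups.

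The adaptors Phlda3 and Zmat3 had the largest rises among the called members. Phlda3, a lipid-binding protein that keeps AKT off the membrane, rose from 147 to 705 in NT cells, from 239 to 482 in HOXA9 cells, from 276 to 615 in PML-RARa cells and from 165 to 577 in MLL-AF9 cells. Its mean log2 ratio was 1.55 ± 0.25 (limma adjusted p = 0.036), or 2.94-fold, and the groups do not overlap. Zmat3, an RNA-binding zinc finger protein, rose from 332 to 1457 in NT cells, from 571 to 1408 in HOXA9 cells, from 699 to 1675 in PML-RARa cells and from 346 to 1020.5 in MLL-AF9 cells. Its mean log2 ratio was 1.56 ± 0.19 (limma adjusted p = 0.035), and every OHT library lay above every control. For both genes the control value was lower in NT and MLL-AF9 than in HOXA9 and PML-RARa. The ratio was higher in NT and MLL-AF9, but the control value is its divisor, so the 2 orders are not independent.

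The kinase gene Plk2, whose product acts in the S-phase checkpoint and centriole duplication, had the widest spread. It went from 58.7 to 421 in NT cells, from 149 to 1079 in HOXA9 cells, from 266 to 490.3 in PML-RARa cells and from 14.8 to 1851 in MLL-AF9 cells. All OHT libraries exceeded all controls, yet log2 ratios of 2.82, 2.85, 0.88 and 6.87 gave a mean of 3.36 ± 1.0 and no call (limma adjusted p = 0.081; DESeq2 adjusted p = 0.0077). The Plk2 mean was 2.18 without the MLL-AF9 pair, whose control library held 14 reads of it. Plk3, a related stress kinase, had control values of 534 to 1277 and OHT values of 681 to 1321 (0.34 ± 0.16, limma adjusted p = 0.19). Rps27l, a ribosomal protein paralogue that p53 induces, had the highest level per length of all members (849 per kb in control, 989 per kb in OHT libraries) and a ratio of 0.21 ± 0.11 (limma adjusted p = 0.22).

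**Figure D3:**
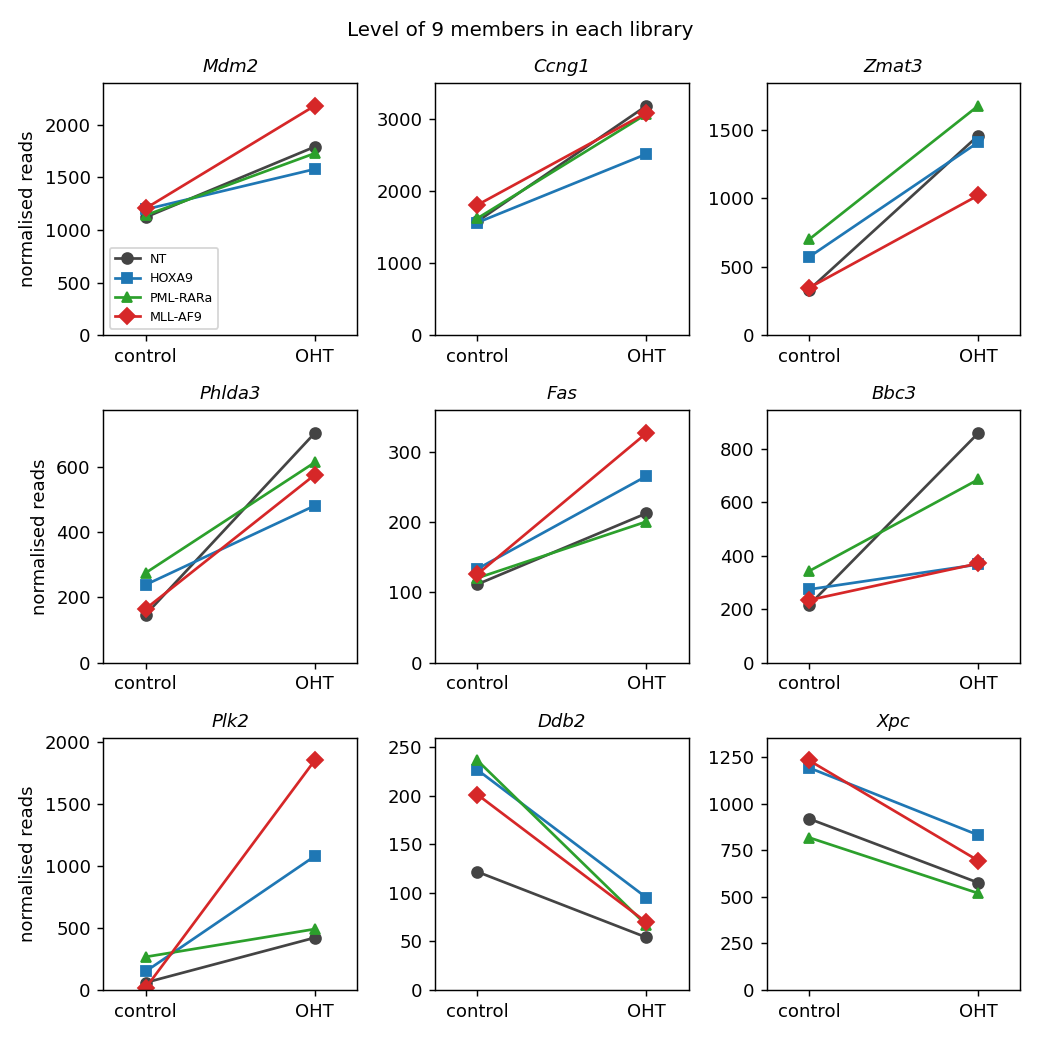
Normalised reads (y axis, from 0) of 9 members in the control and OHT library of each context, 1 line per context. Mdm2, Ccng1, Zmat3, Phlda3, Fas, Bbc3 and Plk2 are higher with OHT in every context, and Ddb2 and Xpc lower.

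Both members that fell are DNA repair genes, of which 5 were tested (median -0.03), and the role itself was not tested. Ddb2, which finds ultraviolet damage for nucleotide excision repair, fell from 122 to 54.0 in NT cells, from 227 to 95 in HOXA9 cells, from 236 to 66.6 in PML-RARa cells and from 201 to 69.6 in MLL-AF9 cells. The groups do not overlap, and the mean log2 ratio was -1.43 ± 0.15 (limma adjusted p = 0.035). Human DDB2 is a known p53 target, whereas the mouse gene is known not to be induced by p53. Xpc, which recognises distorted DNA in the same repair path, fell from 919 to 576 in NT cells, from 1193 to 832 in HOXA9 cells, from 818 to 519 in PML-RARa cells and from 1233 to 694 in MLL-AF9 cells. It was lower in 4 of 4 contexts (-0.67 ± 0.11, limma adjusted p = 0.037), although the HOXA9 OHT library stood just above the PML-RARa control.

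Ercc5, or XPG, an endonuclease of the same path, had the opposite direction. Its values were 236 and 486 in NT cells, 264 and 409 in HOXA9 cells, 234 and 445 in PML-RARa cells and 287 and 297 in MLL-AF9 cells. All OHT libraries lay above all controls, with little distance in MLL-AF9, and it did not pass (0.66 ± 0.20, limma adjusted p = 0.084). For Ercc5 the DESeq2 adjusted p was 0.0082. Polk, a polymerase that copies damaged DNA, had values of 271 and 435 in NT cells, 429 and 309 in HOXA9 cells, 256 and 343 in PML-RARa cells and 408 and 240.1 in MLL-AF9 cells, so its contexts split evenly (limma adjusted p = 0.95). Rrm2b, the p53-induced subunit of ribonucleotide reductase that supplies nucleotides outside S phase, had 237 and 375 in NT cells, 189 and 209 in HOXA9 cells, 200.0 and 255 in PML-RARa cells and 418 and 214 in MLL-AF9 cells (limma adjusted p = 0.92). Its paralogue Rrm2, the S-phase subunit, fell in all 4 contexts (-0.94 ± 0.20, limma adjusted p = 0.049), as did their partner Rrm1 (-0.86 ± 0.18, limma adjusted p = 0.047).

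Of the sestrins, stress proteins that damp mTORC1, neither member passed. Sesn2 had values of 426 and 875 in NT cells, 563 and 755 in HOXA9 cells, 693 and 1078 in PML-RARa cells and 652 and 531 in MLL-AF9 cells (0.45 ± 0.24, limma adjusted p = 0.24). Its ratio was positive in NT, HOXA9 and PML-RARa and negative in MLL-AF9. Sesn1, with 10.9 to 45.2 in all libraries, was measured poorly (limma adjusted p = 0.86). Their paralogue Sesn3, better known as a FOXO target, rose from 56.3 to 204 in NT cells, from 44.0 to 69.7 in HOXA9 cells, from 54.5 to 204 in PML-RARa cells and from 6.35 to 40.9 in MLL-AF9 cells (1.72 ± 0.32, limma adjusted p = 0.041). Other paralogues of members that rose were Trp53inp2 (1.32 ± 0.24), an autophagy protein, and Btg1 (0.98 ± 0.19), a relative of Btg2. Plk1, the mitotic relative of Plk2 and Plk3, fell (-1.40 ± 0.28). In all, 3 of 23 tested paralogues rose and 3 fell by limma (6.40% and 7.48% of all transcripts), with a list median of 0.08.

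The contexts were then set side by side, with 1 library against 1 and so no test. At least 2-fold higher with OHT were 10 of 24 members in NT (41.7%, against 12.8% of all transcripts), 3 in HOXA9 cells (12.5%, against 8.62%), 3 in PML-RARa cells (12.5%, against 8.09%) and 6 in MLL-AF9 cells (25%, against 14.7%). Phlda3 and Zmat3 were on all 4 of these lists, and Plk2 on those of NT, HOXA9 and MLL-AF9. At least 2-fold lower was 1 member each in NT (4.17%, against 8.10%), HOXA9 (4.17%, against 5.07%) and PML-RARa (4.17%, against 12.5%), in each case Ddb2. In MLL-AF9 there were 3 (12.5%, against 13.8%), namely Ddb2, Sesn1 and Ei24. The median ratio of the members was 0.76 in NT cells, 0.41 in HOXA9 cells, 0.39 in PML-RARa cells and 0.31 in MLL-AF9 cells, beside 0.03, 0.01, -0.09 and -0.10 over all transcripts. NT gave the largest of the 4 ratios for 12 of 24 members, MLL-AF9 for 7, HOXA9 for 4 and PML-RARa for 1. The same count was not made over all transcripts, so this order cannot be called a trait of the members.

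Whether the NT ratios differed from those of the transduced cells was tested with limma, 1 ratio against 3. None of 10599 transcripts passed, and so none of the members (573 transcripts, or 5.41%, at an unadjusted p under 0.05). Bbc3 alone among the members had an unadjusted p under 0.05 (NT higher by 1.30, unadjusted p = 0.023, limma adjusted p = 0.83). With NT as 1 ratio the test can show little, so it does not tell whether the responses differ, and the transduced contexts were not tested against each other. In the 3 transduced contexts alone limma called 0 of the 24 members, against 0.226% of all transcripts higher and 0.0189% lower. At an unadjusted p under 0.05, 8 members were higher (33.3%, against 13.3% of all transcripts) and 2 lower (8.33%, against 16.9%). The lowest limma adjusted p of a member there was 0.066. On whole reads edgeR called 3 members higher and 1 lower in these contexts, against 3.43% and 1.60% of all transcripts. DESeq2 called 6 higher and 2 lower, against 11.2% and 7.22%. These contexts are part of the comparison over 4, so the results are not independent of it.

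In the control libraries most members had like levels across contexts. The highest control library was less than 2-fold above the lowest for 16 of 24 members, and the median of this range was 1.65-fold. Only Perp (18.7-fold) and Plk2 (17.9-fold) exceeded 4-fold. The highest control value was in PML-RARa for 10 members, in MLL-AF9 for 10, in HOXA9 for 2 and in NT for 2. These ranges and counts were not made over all transcripts, so they describe the members without setting them apart.

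Of 27 other tested p53 targets, 3 rose and 2 fell, against 6.40% and 7.48% of all transcripts, so that the fallen share is near the background, with a median of 0.47. The 3 that rose were Ephx1, an epoxide hydrolase (1.80 ± 0.28, limma adjusted p = 0.036), the small GTPase Rap2b (1.14 ± 0.17) and Bax, the pore-forming effector of apoptosis (0.52 ± 0.11). Bax rose from 630.4 to 915 in NT cells, from 565 to 740.2 in HOXA9 cells, from 649.7 to 915 in PML-RARa cells and from 668 to 1064 in MLL-AF9 cells. Among those that fell was Ckap2 (-1.55 ± 0.21), a spindle protein gene of dividing cells.

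Of 30 tested regulators and cofactors of p53, 0 rose and 5 fell, against 6.40% and 7.48% of all transcripts, with a median of -0.22. Those that fell were the kinases Atr (-1.0 ± 0.15) and Chek1 (-1.33 ± 0.18), the histone variant H2afx (-1.07 ± 0.17), Brca1 (-1.48 ± 0.28) and the nuclease Mre11a (-0.69 ± 0.13). Other DNA damage genes of the list did not pass, among them Atm (-0.37, limma adjusted p = 0.31), Chek2 (-0.38, limma adjusted p = 0.23), Prkdc (-0.14, limma adjusted p = 0.81) and Rad50 (-0.55, limma adjusted p = 0.10). Mdm4, the partner of Mdm2, did not pass (-0.54 ± 0.28, limma adjusted p = 0.22) and its ratio was -1.53 in MLL-AF9 cells and between -0.25 and -0.14 in the others. Cell cycle genes that p53 is known to lower through p21 and the DREAM repressor complex were also listed. Of 22 tested, 17 fell and 0 rose, against 7.48% of all transcripts that fell, and the list median was -1.28. Its median ratio was -1.80 in NT cells, -0.52 in HOXA9 cells, -1.46 in PML-RARa cells and -1.33 in MLL-AF9 cells. These genes also mark proliferation as such, Chek1 is in 2 of the lists, and what part p21 had in their fall was not tested.

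**Figure D4:**
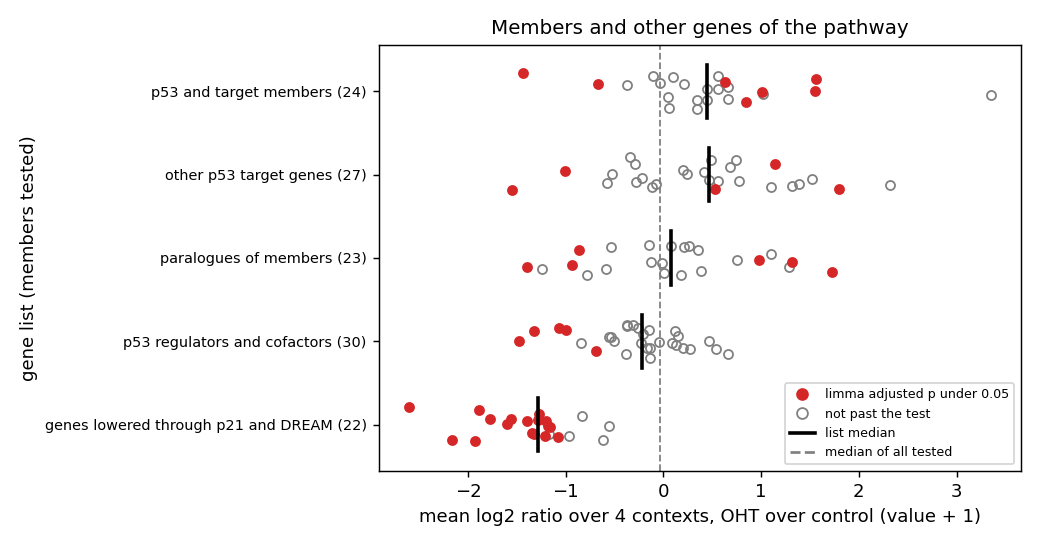
Mean log2 ratio over 4 contexts (x axis) of the tested genes of 5 lists (y axis, number tested in brackets); filled points passed limma's test, black bars are list medians and the dashed line is the median of all transcripts. The member median lies at 0.45 and that of the genes lowered through p21 and DREAM at -1.28.

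Markers of other cell types moved with the same contrast. Of 15 tested macrophage markers 11 rose and 0 fell, and the summed value of the 17 listed ran from 3146 to 6051 in control and from 12359 to 24196 in OHT libraries. Among the markers of this list Cd163 stood near the lowest entry, with a mean of 0.92 in control and 2.92 in OHT libraries. The median ratio of the list was 1.73 in NT cells, 3.27 in HOXA9 cells, 3.73 in PML-RARa cells and 5.92 in MLL-AF9 cells. Of 10 tested stem and progenitor markers 3 fell and 0 rose, with 5 ratios positive, 5 negative and a median of -0.07. Among 12 neutrophil markers none passed with limma (2 higher and 5 lower at an unadjusted p under 0.05). Erythroid and megakaryocyte markers rose in 3 of 7 cases. Mast cell, basophil and eosinophil markers had 1 fall among 10, but 7 ratios were positive and the list median was 0.70. At an unadjusted limma p under 0.05, 4 of these were higher and 2 lower. The 1 lymphoid marker tested fell, and of 11 tested interferon response genes 9 rose. The summed value of the 13 interferon genes found ran from 296 to 526 in control and from 2135 to 10430 in OHT libraries. The threshold on the mean takes in the OHT libraries, so genes low in control can enter the test through their rise. The tested interferon and macrophage genes may therefore favour those that rose, and how far was not tested. Over all transcripts 6.40% rose and 7.48% fell. The part of these shifts in the values of the p53 members was not tested.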

How the data were processed

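Signal columns of the 4 deposited tables hold the authors' normalised read counts per RefSeq transcript; the header word for them is that of DESeq. Per the submitters' processing notes TopHat, DESeq and the build mm9 were used; the read counter is not given in the sources used here. The deposited ratio, log2 and p-value columns compare 1 library with 1 library, per the file headers, and were not used. All values (100%) were whole multiples of the lowest entry of their library within 0.02, so whole reads were recovered; the lowest entry is 1 read, with no 0.

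limma 3.58.1 (R 4.3.3) was fitted on log2(value + 1) with the context as a block, over 10599 transcripts with a mean of at least 20, with Benjamini-Hochberg adjustment; contexts are the only replicates, so p-values measure the spread between them. The fit was tested on simulated data. edgeR 4.0.16 and DESeq2 1.42.0 on whole reads, and other settings, were alternatives. Members, roles and lists were chosen with earlier results of these data known. Every member is accounted for; of other lists only examples are named, and some items are not reported here. Transcript lengths are GENCODE's and start sites RefSeq's (GRCm38.p6), with no coordinate carried to mm9. Intervals (95%, exact binomial on reads) cover counting error only. Reads per base reached 0.5 or more in 6 tested members (Mdm2, Ccng1, Perp, Pmaip1, Plk3 and Rps27l), and a ceiling on reads per base, seen at 2.12 over all transcripts, could compress or shift their ratios.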

Additional observations from a re-analysis of the deposited data

Results flagged for a closer look

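For 7 members the direction differed between contexts, taking only ratios whose own counting interval excludes 0 (log2 of reads, OHT over control). The same count is not given over all transcripts, so it cannot be called a trait of the members or of a context. With 1 library against 1 these differences between contexts were not tested. Perp had 1.23 in NT and 1.39 in MLL-AF9 but -0.83 in HOXA9. Btg2 had 1.02 in NT, 0.83 in HOXA9 and 1.17 in MLL-AF9 but -0.36 in PML-RARa.

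MLL-AF9 was the context on the lower side for the other 5. Sesn2 had 1.04 in NT, 0.42 in HOXA9 and 0.64 in PML-RARa but -0.30 in MLL-AF9, and Sesn1 had 1.04 in PML-RARa but -1.33 in MLL-AF9. Rrm2b had 0.66 in NT and 0.35 in PML-RARa but -0.97 in MLL-AF9. Ei24 had 0.88 in HOXA9 but -1.38 in MLL-AF9. Polk had 0.69 in NT and 0.42 in PML-RARa but -0.47 in HOXA9 and -0.76 in MLL-AF9.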

How the results depend on the processing

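Of the 24 tested members, 7 were called across the 4 contexts. The count was 3 with no filter on low values, 12 by DESeq2 and 0 to 0 without any 1 pair, and under the 10 other settings it lay between 5 and 10. In the 3 transduced contexts 0 were called. The count was 1 with a mean of at least 100 and 3 with limma's trend and robust options. With the authors' size factors edgeR called 2, and without any 1 pair the count was 0 to 0. For these settings the share over all transcripts is not given here, so the counts cannot be read as a trait of the members. With TMM edgeR called 4, where 3.43% of all transcripts were higher and 1.60% lower. DESeq2 called 8, against 11.2% higher and 7.22% lower. The members at least 2-fold apart in PML-RARa were 4, and 7 with ratios centred on the median of all transcripts. The share of all transcripts 2-fold apart after centring is not given here. Members that changed sign had no call: without 1 pair Sesn1 ran from -0.47 to 0.28, Ei24 from -0.21 to 0.52, Polk from -0.27 to 0.21 and Rrm2b from -0.16 to 0.38, Polk was 0.0050 with centred ratios, 0.054 by edgeR with TMM and 0.035 by DESeq2, and Sesn1 was 0.025 by edgeR with TMM. The cause of these changes was not tested.

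Over all transcripts limma called 1471 (46.1% higher), 354 with no filter, 2257 with trend and robust options, and 26, 0, 0 and 0 without NT, HOXA9, PML-RARa or MLL-AF9; edgeR with TMM called 2235 (57.1% higher) and DESeq2 3130 (56.5% higher). With no replicate block for the context pairing 6 members were called, beside 999 of all 10599 transcripts. Xpc was no longer among them (limma adjusted p = 0.079). Trp53, Sesn1 and Ei24 rest on few reads; the part of read assignment in this was not tested.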

Other observations

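Some listed p53 targets that did not pass had unequal ratios between contexts, which were not tested against each other. Gdf15, a stress cytokine, had log2 ratios of 1.11 in NT cells, 0.66 in HOXA9 cells, 4.0 in PML-RARa cells and 3.52 in MLL-AF9 cells. It did not pass (limma adjusted p = 0.076), and in PML-RARa cells its control value was only 3.83, against 76.2 with OHT. Trp53i11 had 1.98 in NT cells and 2.38 in MLL-AF9 cells against 0.49 in HOXA9 cells and -0.43 in PML-RARa cells (limma adjusted p = 0.19). Bcl6, a transcriptional repressor, had 0.67, 1.35, -0.53 and 3.76 in the order used for Gdf15 (limma adjusted p = 0.24).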
